A study of Mus musculus with 19 samples.

Results

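The protein folding chaperones examined here are 40 genes of the 18607 in the deposited expression table, and all 40 were present. They were listed by name from the known chaperone families and their stress regulators, except that Calr and Hspd1 were selected on their measured values, having been seen highest in one stage, the early innate lymphoid progenitor (EILP). For these 2 genes the values in comparisons with EILP are a description and carry no test, and the counts below run over the other 38. The whole list was drawn up with earlier results of these data known, so these counts are not a blind test. By compartment, the list held 14 genes of the endoplasmic reticulum (ER), 4 of mitochondria, 12 of the cytosol, 7 subunits of the chaperonin TRiC and 3 stress response transcription factors.

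RNA was sequenced from progenitors sorted from C57BL/6 mouse bone marrow in 19 libraries. All-lymphoid progenitors (ALP, 7 libraries) were linlow Ly-6Dlow and positive for Kit and IL-7Ra with high Flt3. EILP (7 libraries) were Kit positive, CD122low and Thy-1.2low, with high GFP and intermediate to low IL-7Ra. Innate lymphoid cell precursors (ILCp, 5 libraries) had high GFP and IL-7Ra and carried Thy-1.2 and the integrin a4b7. ALP and EILP, and ILCp 1 to 3, came from mice with 1 Tcf7EGFP reporter allele, and ILCp 4 and 5 from mice with Plzf-cre-GFP in its place. So every cell studied carried a GFP reporter allele, and the libraries of 1 stage, ILCp, mix 2 of them. The labels give no age and leave unsaid whether libraries are separate animals, and p-values then measure only how far these libraries spread, which may be technical.

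Chaperones bind unfolded protein and let it fold, mostly in cycles of ATP binding and release. In the ER, Hspa5 (BiP) and the lectins calnexin and calreticulin hold new secretory and membrane proteins while disulfide isomerases pair their cysteines, and the unfolded protein response, through Xbp1, Atf4 and Ddit3 among others, adjusts this machinery. Hspd1 and Hspe1 form the folding chamber of the mitochondrial matrix, TRiC is the corresponding chamber of the cytosol, with actin and tubulin among its clients, and the Hsp70 and Hsp90 systems serve the cytosol.

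The promoter sequence was also described. It is not independent of a list of known chaperones and stress genes. Promoters of 300 bases, 250 before and 50 after the start, from RefSeq on GRCm38.p6, matched 33 of the 40 members (40 promoters). The ER stress response element, searched on both strands as CCAAT and CCACG 9 bases apart, lay in 7 of 12 ER members' promoters and in none of the other members' promoters. Of all 32851 promoters, 39 held it (0.119%). The 7 genes are Calr, Hspa5, Hsp90b1 (with 2 copies), Canx, Pdia6, Dnajc3 and Creld2, and they are shown because they share this element. Each run is 5′ to 3′ on the gene's own strand, the capitals mark the element's ends, and an element on the opposite strand reads CGTGG first and ATTGG last.
Calr: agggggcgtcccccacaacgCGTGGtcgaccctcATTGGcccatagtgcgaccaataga
Hspa5: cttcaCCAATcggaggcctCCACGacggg
Hsp90b1, first copy: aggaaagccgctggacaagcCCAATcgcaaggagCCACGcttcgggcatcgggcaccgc
Hsp90b1, second copy: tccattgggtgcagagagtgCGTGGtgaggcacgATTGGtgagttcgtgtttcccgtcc
Canx: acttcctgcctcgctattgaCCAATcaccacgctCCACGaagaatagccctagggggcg
Pdia6: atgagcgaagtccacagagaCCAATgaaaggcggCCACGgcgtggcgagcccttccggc
Dnajc3: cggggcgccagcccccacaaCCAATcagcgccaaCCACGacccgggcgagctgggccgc
Creld2: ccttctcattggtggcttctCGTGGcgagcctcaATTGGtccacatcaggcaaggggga
On GRCm38.p6 these windows are chr8:84847055-84847113 (minus strand) for Calr, chr2:34772020-34772048 (plus) for Hspa5, chr10:86705618-86705676 and chr10:86705513-86705571 (minus) for Hsp90b1, chr11:50325780-50325838 (minus) for Canx, chr12:17266471-17266529 (plus) for Pdia6, chr14:118937807-118937865 (plus) for Dnajc3 and chr15:88819500-88819558 (plus) for Creld2. The Hspa5 window touches an exon of the GENCODE annotation and the other 7 touch none. A match is a description of the letters and not a measured binding site. The UPR element TGACGTGG (0.676% of all promoters) and the amino acid response element TTGCATCA (0.895%) were in none of the members' promoters.

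The mitochondrial pair Hspd1 and Hspe1 lies head to head on chromosome 1. RefSeq gives Hspd1 2 starts, 216 bases before and 95 bases after the Hspe1 start by coordinate, so that the first pair of starts faces away from each other. From 89 bases before the Hspe1 start, between those starts, runs a row of heat shock element units, searched as GAANNTTC or TTCNNGAA on both strands. The run, in capitals, is shown because 2 members share it.
Hspe1 and Hspd1: gtccgTTCTAGAACCTTCCGGAAggccc
This window is chr1:55088054-55088081 on the plus strand of GRCm38.p6 and touches a GENCODE exon. Such units were in 10 of the members' 40 promoters (25%), against 15.1% of all promoters. These belonged to 9 of 33 members, 5 of them cytosolic. Because the kits did not keep the strand and the GENCODE models of the 2 genes overlap at their starts, reads from that overlap cannot be assigned to 1 of them.

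Values are the deposited log2 CPM. Their sums were not equal, from 908573 CPM in ILCp 3 to 1035200 in ALP 2. From the values, batch differences had been removed while the stages were kept: the largest batch coefficient beside the stages was 1.84e-08, against 6.01 without them. Read totals of the libraries are not in the table, so depth is unknown. Stage markers gave the labelled pattern: Tcf7, the reporter's gene, was 9.46 ± 1.19 (SE, log2) higher in EILP than in ALP by limma (adjusted p = 0.000124), and 7 of 10 stage markers were higher in EILP. Markers of other cells also moved. The summed level of 9 neutrophil and monocyte genes was 489 to 5334 CPM in ALP, 1560 to 37444 in EILP and 89.7 to 1493 in ILCp, with EILP 2 the highest. None of the 9 passed between ALP and EILP: Elane, Mpo, Prtn3 and S100a8 had a higher mean in EILP and the other 5 a lower one. From EILP to ILCp 2 of the 9 fell by limma, Mpo by −3.33 ± 0.83 (adjusted p = 0.0395) and Prtn3 by −3.20 ± 0.71 (0.0231). The summed level of 5 bone stroma genes was 0.705 to 8.97, 2.88 to 1395 and 0.162 to 6.96 CPM in the same 3 stages. Of the 5, Col1a1 and Col1a2 were higher in EILP than in ALP, and 2 were lower in ILCp than in EILP. Of 4 mast cell and basophil genes 1, Cpa3, was higher in EILP, with sums of 340 to 4987 CPM against 7.65 to 42.7 in ALP. The sum of 7 genes of plasma cells, which are rich in ER chaperones, was 61.3 to 620 CPM in ALP, 0.440 to 15.7 in EILP and 70.2 to 477 in ILCp, but the list did not move as one. Sdc1, at a mean of 7.15, 0.10 and 7.22 log2 CPM in ALP, EILP and ILCp, carried that pattern, Mzb1 was lower than in ALP in both later stages, and the other 5 passed in no comparison. Of 6 plasmacytoid dendritic cell genes, from another secretory cell, 5 were lower in EILP and 4 lower in ILCp than in ALP, with sums of 532 to 934 CPM in ALP, 232 to 520 in EILP and 262 to 480 in ILCp. In bulk RNA, more cells of a type and more RNA per cell cannot be told apart.

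Between ALP and EILP no tested member passed. By limma with batch in the model, adjusted over all genes at 0.05, 5.05% of all genes differed (419 higher, 2.25%, and 520 lower, 2.79%), and 0 of the 38 tested members did. At an unadjusted p below 0.05 there were 6 of 38, against 17.5% of all genes. The median change of the 38 was 0.15 on the log2 scale, against 0.00 for all genes. When each library was centred on its median, the median of all genes itself moved to 0.22. Of all genes 6.44% were then called, 804 higher and 395 lower. Of the 38 members 9 passed: Pdia3, Pdia4, P4hb, Manf, Sdf2l1, Hsp90ab1, Ahsa1, Cct2 and Cct7.

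Between EILP and ILCp, 3.21% of all genes differed (327 higher in ILCp, 1.76%, and 271 lower, 1.46%). Of the 38 members 2 did, both lower in ILCp: the ER co-factor Sdf2l1 and the TRiC subunit Cct5. The median member change was −0.28, against −0.08 for all genes, and 17 of 38 members had an unadjusted p below 0.05, against 16.6% of all genes. Between ALP and ILCp, 8.24% of all genes differed (718 higher, 3.86%, and 816 lower, 4.39%), and 5 of the 38 members did. Dnajc3 and Dnaja1 were higher in ILCp, and Hspa9, Cct5 and Tcp1 were lower. The median member change was −0.10, against −0.03 for all genes, and 13 of 38 members had an unadjusted p below 0.05, against 20.9% of all genes. By adjusted p the members' shares are of the same order as the share of all genes in both comparisons. The 3 comparisons share libraries, so their values are given side by side and not as separate evidence.

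**Figure D1:**
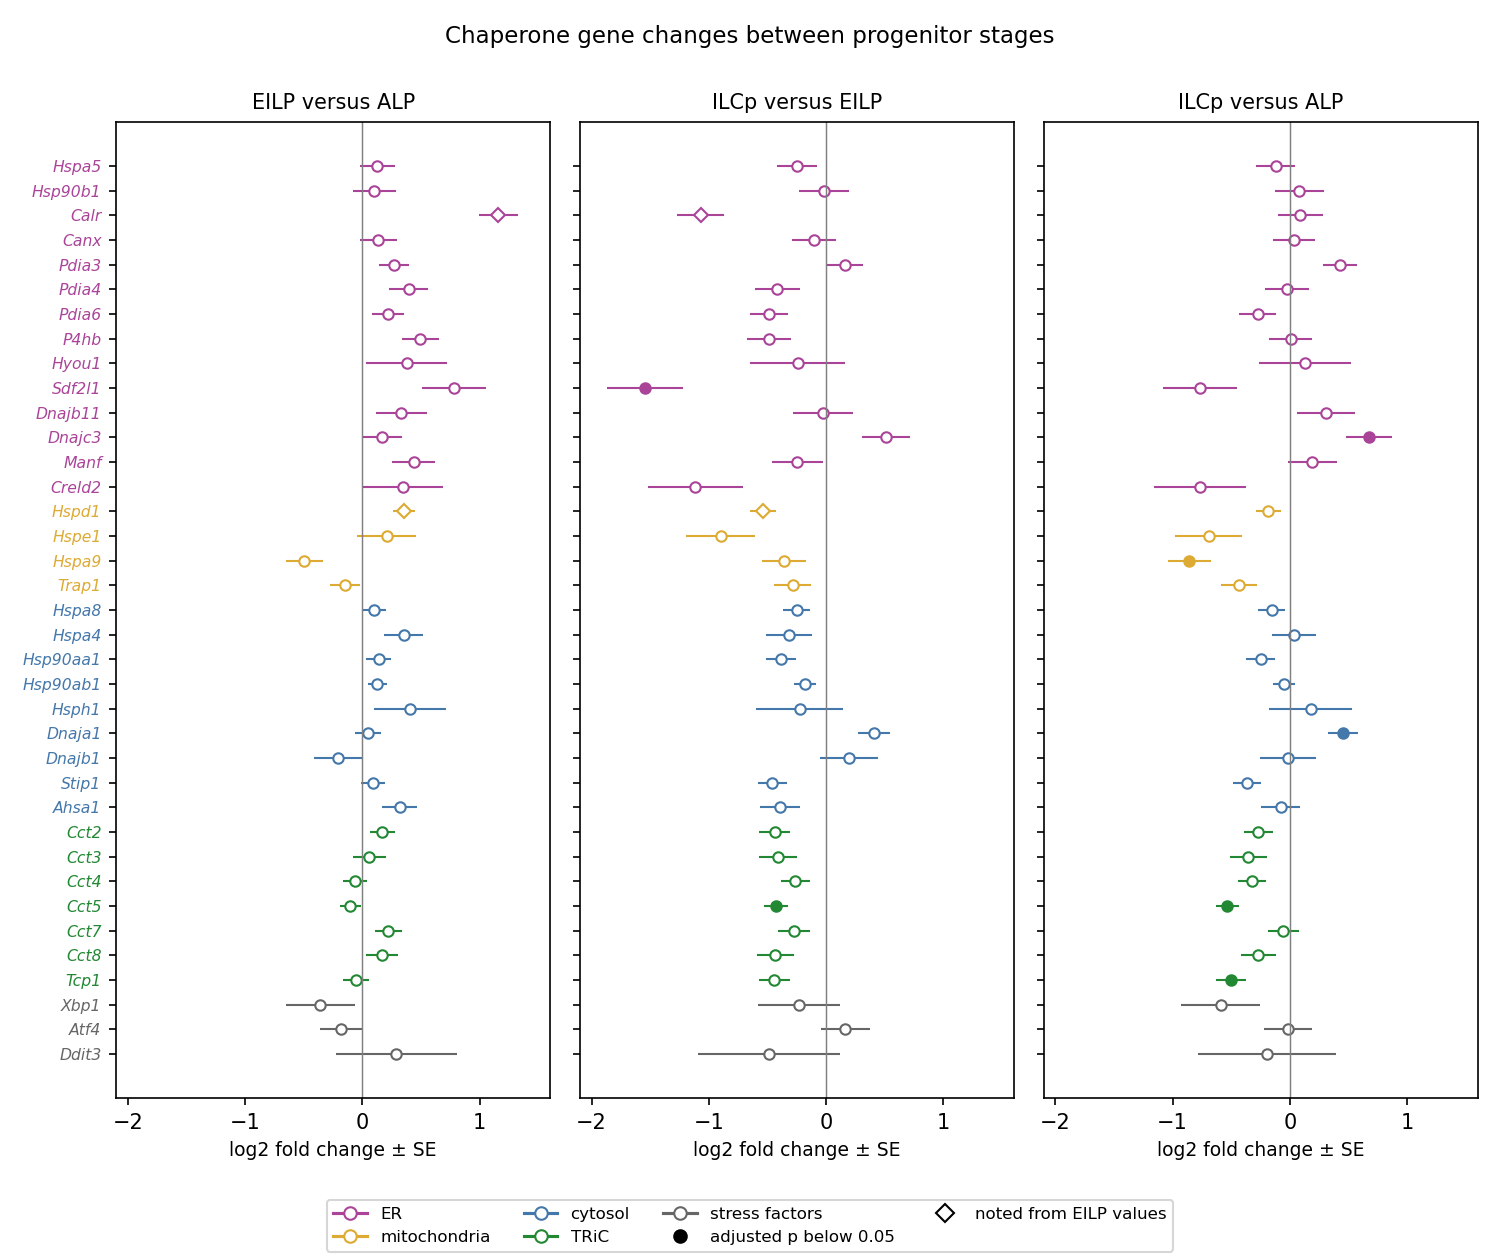
Log2 fold change with its standard error (x axis) for the 37 members with a mean above 2 log2 CPM (y axis, coloured by compartment), for EILP versus ALP, ILCp versus EILP and ILCp versus ALP; filled points passed the limma test and diamonds are Calr and Hspd1, which were selected on their EILP values. The ER genes lie to the right of 0 in EILP versus ALP, and the TRiC genes lie to the left of 0 in ILCp versus EILP.

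Calr, which encodes calreticulin, the soluble lectin chaperone that binds newly made glycoproteins, stood apart in EILP. Its level was 8.82 to 9.35 log2 CPM in ALP (median 9.04) and 10.01 to 10.57 in EILP (median 10.14). The 5 ILCp libraries read 9.27, 8.82, 9.58, 9.45 and 8.53. Every EILP library was above every ALP and ILCp library, which is the pattern it was selected on. The difference was 1.16 ± 0.17 (SE) from ALP to EILP and −1.07 ± 0.20 from EILP to ILCp. Within the 4 batches that hold both stages, EILP was above ALP by 0.92 to 1.57, and without EILP 2, the library with the most neutrophil RNA, the difference was 1.02. EILP 1, with 2.88 CPM of bone stroma RNA, had a Calr level of 10.01, the lowest of the EILP libraries. EILP 5, with the most bone stroma RNA at 1395 CPM, had 10.10. The part of the other cell markers in the Calr difference was not tested. In the comparison its selection did not use, ILCp against ALP, Calr differed by 0.09 ± 0.19 (limma adjusted p = 0.859).

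Canx, the membrane-bound partner of calreticulin in the same cycle, showed no such separation. Canx was 9.14 to 10.23 log2 CPM in ALP, 9.59 to 10.01 in EILP and 9.44 to 10.02 in ILCp, with all 3 ranges overlapping, and its EILP versus ALP difference was 0.14 ± 0.16 (limma adjusted p = 0.694). Within each library, Calr minus Canx was −0.64 ± 0.44 (SD, n = 7) log2 units in ALP, 0.38 ± 0.17 (n = 7) in EILP and −0.59 ± 0.27 (n = 5) in ILCp. The ALP values reached 0.22 and the EILP values began at 0.17, so these ranges overlapped. Such a ratio carries the EILP level that Calr was selected on. It is a description, was not tested and is not adjusted for transcript length.

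Hspa5, the ER Hsp70 and a widely used marker of ER stress, was nearly level. It was 9.31 to 10.07 log2 CPM in ALP (median 9.68) and 9.50 to 9.997 in EILP (median 9.82), and 9.47, 9.30, 9.92, 9.80 and 9.30 in the ILCp libraries. The ranges overlapped, and the differences were 0.13 ± 0.15 for EILP versus ALP (limma adjusted p = 0.689), −0.25 ± 0.17 for ILCp versus EILP (0.512) and −0.12 ± 0.17 for ILCp versus ALP (0.758). Hsp90b1, the ER Hsp90, differed by 0.10 ± 0.18, −0.02 ± 0.22 and 0.08 ± 0.21 in the same order, and none passed. These genes carry the ER stress response element as Calr does. In EILP versus ALP the 7 genes with it ranged from 0.10 to 1.16 (median 0.17). The top value is that of Calr, which was selected on its EILP level. The 5 matched ER genes without it ranged from 0.27 to 0.78 (median 0.39). The part of the element in these values was not tested.

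Sdf2l1, which works with Hspa5 to keep ER clients soluble, was 5.82 to 7.002 log2 CPM in ALP (median 6.30) and 6.90 to 7.58 in EILP (median 7.22). In ILCp it read 5.16, 5.25, 6.32, 6.32 and 5.40, so every ILCp library was below every EILP library, and ILCp 3 and 4 stood above the other 3. The fall from EILP to ILCp was −1.55 ± 0.32 (limma adjusted p = 0.0169), and within the 3 shared batches it was −0.89 to −2.33. The call rests on few libraries: the adjusted p was 0.0563 without EILP 2, 0.0755 without ILCp 1 and 0.0856 without ILCp 2, and 0.0796, 0.154 and 0.0843 without batch 1, 2 and 5, alternatives chosen after seeing the data. Fitted on EILP and ILCp alone it was 0.0816. The ALP to EILP difference of 0.78 ± 0.27 did not pass (adjusted p = 0.130).

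Dnajc3 (p58IPK), a co-chaperone of Hspa5 that also holds back the ER stress kinase PERK, differed from most ER members in being highest in ILCp. It was 6.85 to 7.60 log2 CPM in ALP (median 7.06), 7.07 to 7.55 in EILP (median 7.30) and 7.94, 7.39, 7.81, 7.99 and 7.96 in ILCp. ILCp 2 lay inside the ALP range and the other 4 ILCp libraries above it. The rise from ALP to ILCp was 0.67 ± 0.20 (limma adjusted p = 0.0455), with 0.71, 0.10 and 1.07 within batches 1, 2 and 4. Only 11 of 34 alternatives kept the call. It was lost, among others, without any 1 of ALP 1, 3, 4, 5 and 6, of the 7 EILP libraries or of ILCp 1, 3, 4 and 5, and without batch 1, 4 or 5, and its adjusted p over all alternatives ran from 0.00262 to 0.490.

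Among the disulfide isomerases, P4hb and Pdia4 had their highest mean in EILP and Pdia3 in ILCp. P4hb was 9.33 to 9.90 log2 CPM in ALP (median 9.50), 9.72 to 10.32 in EILP (median 10.17) and 9.70, 9.48, 10.02, 9.79 and 9.09 in ILCp. ALP and EILP overlapped only through EILP 1, the lowest EILP library, and the difference of 0.49 ± 0.16 did not pass (limma adjusted p = 0.0948). Pdia3, which works on glycoproteins held by calreticulin and calnexin, was 9.28 to 10.13 in ALP (median 9.69), 9.81 to 10.25 in EILP (median 9.97) and 10.02, 9.99, 10.16, 10.22 and 10.29 in ILCp. Its ALP to ILCp difference was 0.43 ± 0.15 (adjusted p = 0.0958), and the ranges overlapped through ALP 1 and ALP 6. Pdia4 and Pdia6 differed by 0.39 ± 0.16 and 0.22 ± 0.14 between ALP and EILP and by −0.42 ± 0.19 and −0.49 ± 0.16 between EILP and ILCp, and neither passed.

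The remaining ER members did not pass either. Manf, a secreted factor of the stressed ER, was 6.06 to 7.05 log2 CPM in ALP and 6.88 to 7.11 in EILP, with a difference of 0.44 ± 0.18. Creld2, another ER stress gene, was 5.52 to 6.71 in EILP and 5.16, 3.72, 4.83, 5.18 and 5.20 in ILCp, without overlap, and its difference of −1.12 ± 0.41 had a limma adjusted p of 0.161. Hyou1, an exchange factor for Hspa5, and Dnajb11, one of its J-domain partners, differed by 0.38 ± 0.34 and 0.33 ± 0.22 between ALP and EILP. All 13 tested ER differences between ALP and EILP lay between 0.10 and 0.78 with a median of 0.33. Of 14 ER members 12, Calr included, had their highest mean in EILP. Calr is among them by its selection, and the share of all genes highest in EILP was not counted. The batches differed: the median of the 14 was −0.14 in batch 1, 0.51 in batch 2, 0.48 in batch 4 and 0.25 in batch 5. In every batch 4 of 14 were higher in EILP: Sdf2l1, Dnajb11, Manf and Calr, which was selected on its EILP values. The share of all genes higher in every batch was not counted. The highest EILP level of Calr, Hspa5, Hsp90b1, Pdia3, Pdia4, Pdia6, P4hb, Sdf2l1 and Creld2 was in EILP 2, the library with 37444 CPM of neutrophil and monocyte genes. So was that of Hspd1, Hspa9, Trap1, Hsph1, Ahsa1, Cct4, Cct7 and Xbp1, outside the ER list. The share of all genes highest in EILP 2 was not counted. The part of neutrophils and monocytes in these levels was not tested.

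**Figure D2:**
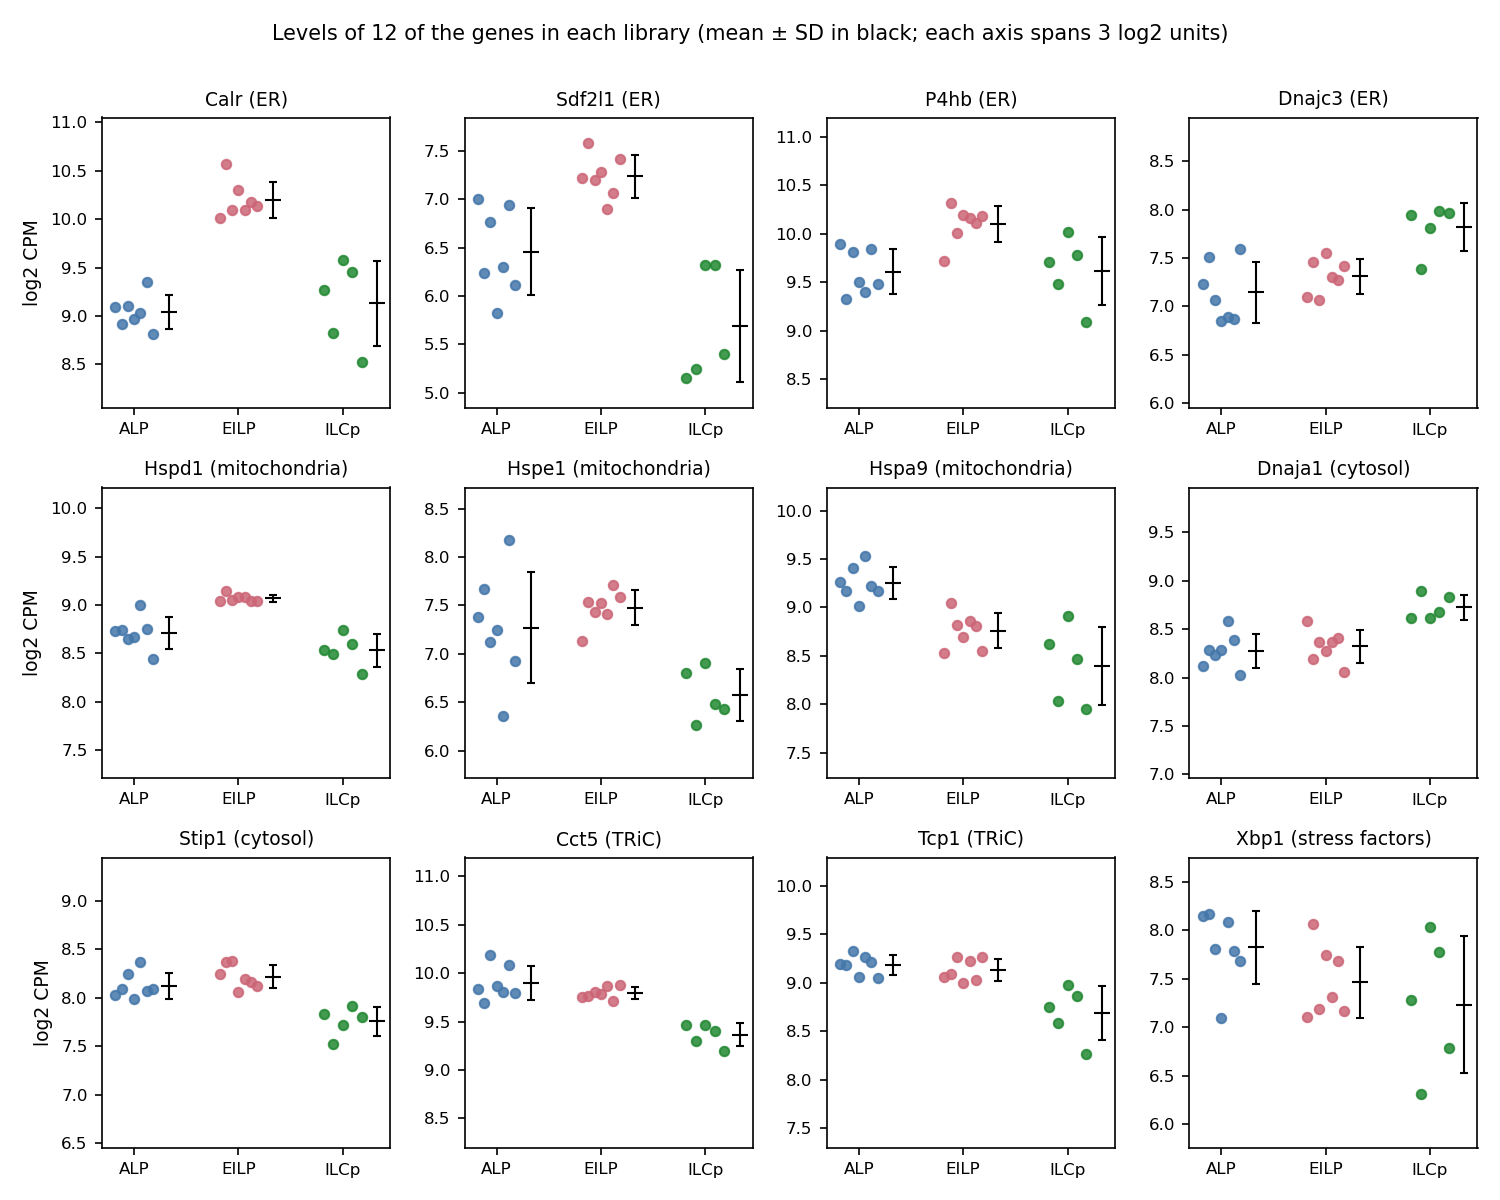
Deposited log2 CPM (y axis) of 12 members in each ALP, EILP and ILCp library (points, in replicate number order), with the mean and SD in black; every axis spans 3 log2 units. Calr and Hspd1 are separate in EILP, and Sdf2l1, Hspe1, Stip1, Cct5 and Tcp1 are lower in ILCp than in EILP without overlap.

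In mitochondria the 4 members divided. Hspd1 (Hsp60) was 8.45 to 8.998 log2 CPM in ALP (median 8.73), 9.04 to 9.14 in EILP (median 9.05) and 8.54, 8.49, 8.74, 8.60 and 8.28 in ILCp. The EILP libraries lay in a band of 0.04 SD above every library of both other stages, as selected, at 0.36 ± 0.10 above ALP and 0.54 above ILCp (ILCp minus EILP −0.54 ± 0.11). ILCp and ALP, which the selection did not use, differed by −0.18 ± 0.11 (limma adjusted p = 0.376). Hspe1 (Hsp10), the lid of the Hspd1 chamber, was 6.36 to 8.18 in ALP (median 7.25), 7.14 to 7.71 in EILP (median 7.52) and 6.80, 6.26, 6.91, 6.48 and 6.42 in ILCp. All ILCp libraries were below all EILP libraries, but the difference of −0.90 ± 0.30 did not pass (adjusted p = 0.121). Within libraries, Hspd1 exceeded Hspe1 by 1.45 ± 0.63 (SD, n = 7) log2 units in ALP, 1.59 ± 0.18 (n = 7) in EILP and 1.96 ± 0.21 (n = 5) in ILCp. Rows named as Hspe1 and Calr pseudogenes exist in the table, so part of the reads of these genes may have been assigned elsewhere.

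Hspa9 (mortalin), the matrix Hsp70 that also pulls imported proteins in, was highest in ALP. It was 9.02 to 9.53 log2 CPM in ALP (median 9.22), 8.53 to 9.04 in EILP (median 8.81) and 8.62, 8.04, 8.91, 8.47 and 7.95 in ILCp. Every ILCp library was below every ALP library, and EILP 2, the highest EILP library, reached into the ALP range. The fall from ALP to ILCp was −0.86 ± 0.18 (limma adjusted p = 0.00743), and −0.64, −1.25 and −0.57 within batches 1, 2 and 4. It was lost, among others, without ILCp 2 and, as alternatives chosen after seeing the data, without batch 2 (adjusted p = 0.106) or batch 5 (0.0616). The ALP to EILP difference was −0.50 ± 0.16 (adjusted p = 0.0955) and that of EILP to ILCp −0.36 ± 0.19 (0.359). Trap1, the mitochondrial Hsp90, was 7.68 to 8.09 in ALP (median 7.84), 7.41 to 7.99 in EILP (median 7.69) and 7.68, 7.29, 7.58, 7.47 and 7.11 in ILCp. Its ALP to ILCp difference was −0.43 ± 0.15 (adjusted p = 0.0962).

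Over all batches together, the 7 TRiC subunits of the list had a lower mean in ILCp than in EILP, by −0.44 to −0.26 with a median of −0.43, and 5 of the 7 had an unadjusted p below 0.05, against the 16.6% of all genes. Within batches the median was −0.06 in batch 1, −0.66 in batch 2 and −0.47 in batch 4, and 4 of 7 subunits, Cct2, Cct4, Cct5 and Tcp1, were lower in ILCp in every batch. The share of all genes lower in every batch was not counted. By adjusted p Cct5 passed. It was 9.70 to 10.19 log2 CPM in ALP (median 9.84), 9.71 to 9.88 in EILP (median 9.78) and 9.47, 9.30, 9.46, 9.40 and 9.20 in ILCp, so that every ILCp library was below every library of the other stages. Cct5 fell by −0.43 ± 0.10 from EILP to ILCp (limma adjusted p = 0.0325) and by −0.53 ± 0.10 from ALP to ILCp (adjusted p = 0.00282), with −0.28 to −0.51 and −0.38 to −0.65 within the 3 shared batches. The first call was lost in 19 of 34 alternatives, among them each batch left out (adjusted p 0.0694 to 0.249), the Plzf-cre-GFP libraries left out (0.129) and, one at a time, ALP 4, EILP 1, 2, 3, 4, 5 and 7 and ILCp 2, 4 and 5 left out. The second was lost in 5, among them batch 4 left out (0.0825), centring on the median (0.0510) and a fit on ALP and ILCp alone (0.0702).

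Tcp1 (Cct1), another subunit of the same ring, was 9.05 to 9.33 log2 CPM in ALP (median 9.20), 8.998 to 9.27 in EILP (median 9.09) and 8.75, 8.59, 8.97, 8.86 and 8.26 in ILCp, again with no overlap. It fell by −0.50 ± 0.13 from ALP to ILCp (limma adjusted p = 0.0233), and the EILP to ILCp difference of −0.44 ± 0.13 did not pass (adjusted p = 0.0839). The first call was lost, among others, without ALP 1, EILP 5 or ILCp 2, without batch 1 (adjusted p = 0.0707), 2 (0.216) or 5 (0.0853) and with centring on the median (0.105). Cct2 was 8.19 to 8.66 in ALP (median 8.38), 8.39 to 8.77 in EILP (median 8.55) and 8.28, 7.94, 8.31, 8.004 and 8.16 in ILCp, below every EILP library. Its EILP to ILCp difference was −0.44 ± 0.13 (adjusted p = 0.0790). Cct7 had the smallest ALP to ILCp difference of the 7, −0.06 ± 0.13, which became 0.07 with centring on the median. Its range was 8.91 to 9.36 in ALP (median 9.03) and 8.89 to 9.55 in EILP (median 9.31), and it read 9.16, 8.89, 9.19, 9.03 and 8.85 in ILCp. Cct3, Cct4 and Cct8 differed by −0.41 ± 0.16, −0.26 ± 0.12 and −0.43 ± 0.16 between EILP and ILCp.

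Cct6a, the remaining widely expressed subunit, was not in the chosen list but was measured. It had a mean of 9.38 ± 0.14 (SD, n = 7) log2 CPM in ALP, 9.33 ± 0.10 (n = 7) in EILP and 8.79 ± 0.25 (n = 5) in ILCp. It was lower in ILCp by −0.54 ± 0.13 against EILP (limma adjusted p = 0.0316) and by −0.59 ± 0.12 against ALP (adjusted p = 0.00695). The first call was lost, one at a time, without ALP 4, EILP 2 to 7 or ILCp 1, 2, 4 or 5 and without the Plzf-cre-GFP libraries, and the second without batch 2 or 4.

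**Figure D3:**
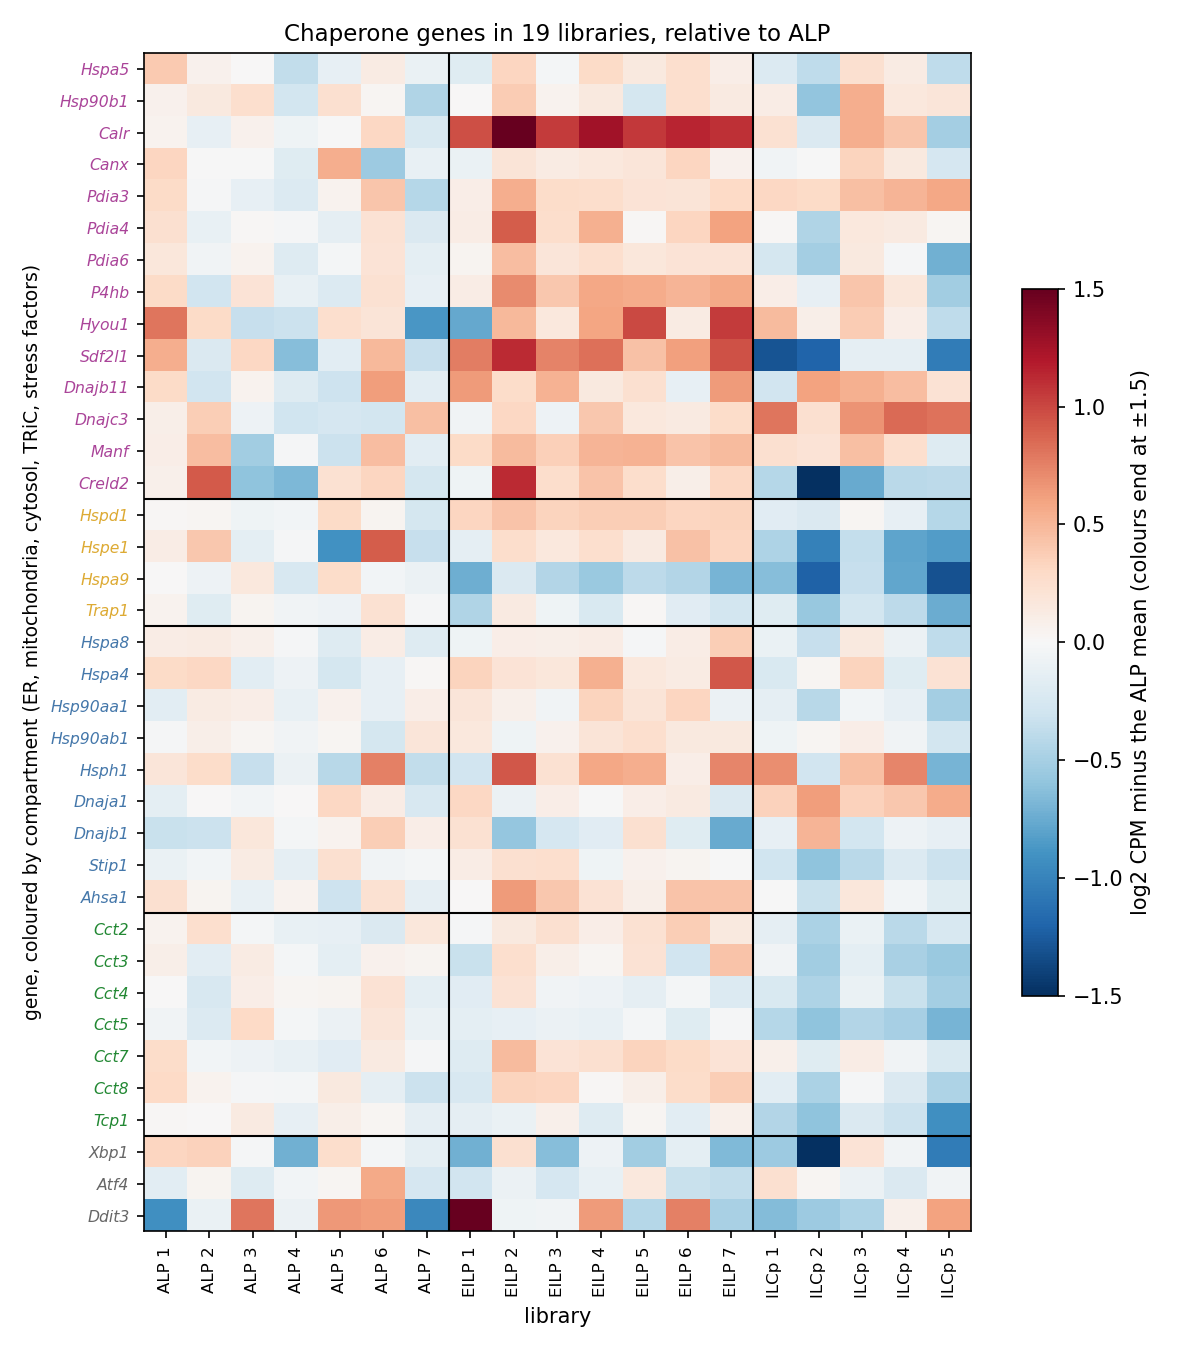
Log2 CPM minus the ALP mean (colour, ending at ±1.5) of the 37 members with a mean above 2 log2 CPM (rows, by compartment) in 19 libraries (columns, by stage). The Calr row is red in all 7 EILP libraries, and the TRiC rows are mostly blue in the 5 ILCp libraries.

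In the cytosol the abundant general chaperones were nearly level. Hspa8 (Hsc70) was 10.95 to 11.26 log2 CPM in ALP, 11.07 to 11.51 in EILP and 10.76 to 11.28 in ILCp, and Hsp90ab1 10.56 to 11.002, 10.75 to 11.06 and 10.54 to 10.92. Neither passed in any comparison, and the ranges overlapped. Hsp90aa1, the inducible form of Hsp90, was 9.11 to 9.39 in ALP (median 9.34), 9.18 to 9.60 in EILP (median 9.45) and 9.13, 8.85, 9.22, 9.14 and 8.75 in ILCp. Its EILP to ILCp difference of −0.39 ± 0.13 did not pass (limma adjusted p = 0.125). Hsp90aa1 stayed below Hsp90ab1 in every library, by −1.55 ± 0.10 (SD, n = 7) log2 units in ALP, −1.54 ± 0.15 (n = 7) in EILP and −1.74 ± 0.15 (n = 5) in ILCp, without adjustment for length.

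Dnaja1, a J-domain co-chaperone that loads clients onto Hsp70, moved the other way from TRiC in ILCp. It was 8.03 to 8.58 log2 CPM in ALP (median 8.28) and 8.06 to 8.58 in EILP (median 8.37), and 8.62, 8.90, 8.62, 8.67 and 8.83 in ILCp. Every ILCp library was above every library of both other stages. The rise from ALP to ILCp was 0.45 ± 0.13 (limma adjusted p = 0.0440), and 0.49, 0.64 and 0.42 within batches 1, 2 and 4. From EILP to ILCp it was 0.41 ± 0.14 (adjusted p = 0.128). The ALP to ILCp call was lost in 20 of 34 alternatives, among them batch 1, 2 or 4 left out (adjusted p 0.0620, 0.268 and 0.210), the Plzf-cre-GFP libraries left out (0.128) and, one at a time, ALP 1, 2, 3 and 4, EILP 3, 4, 5 and 6 and ILCp 1, 2, 4 and 5 left out.

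Stip1 (Hop), which hands clients from Hsp70 to Hsp90, was lower in every ILCp library than in any other. It was 7.99 to 8.37 log2 CPM in ALP (median 8.09), 8.06 to 8.38 in EILP (median 8.19) and 7.83, 7.52, 7.72, 7.92 and 7.80 in ILCp. The differences of −0.46 ± 0.12 from EILP (limma adjusted p = 0.0544) and −0.37 ± 0.12 from ALP (0.0711) just missed the threshold. Ahsa1 (Aha1), which speeds the Hsp90 ATPase, was 7.12 to 7.66 in ALP (median 7.46), 7.43 to 8.06 in EILP (median 7.83) and 7.42, 7.09, 7.59, 7.38 and 7.24 in ILCp, and its differences were 0.32 ± 0.15 from ALP to EILP (adjusted p = 0.273) and −0.40 ± 0.17 from EILP to ILCp (0.259). Hspa4 (Apg-2), an exchange factor for Hsp70, was 7.71 to 8.29 in ALP (median 7.90), 8.10 to 8.91 in EILP (median 8.18) and 7.74, 8.01, 8.31, 7.80 and 8.19 in ILCp, with an ALP to EILP difference of 0.35 ± 0.17 (0.287). Hsph1 and Dnajb1, genes of the classic heat shock response, differed between ALP and EILP by 0.40 ± 0.31 and −0.21 ± 0.21, and between ALP and ILCp by 0.18 ± 0.35 and −0.02 ± 0.24.

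The 3 stress-inducible genes Hspa1a, Hspa1b and Hspb1 were low or variable. They had a mean below 2 log2 CPM, and in 9, 3 and 13 of the 19 libraries the value was the gene's lowest in that batch and was shared by at least 2 libraries (tolerance 1e-06). Hspa1a ranged from −7.18 to 2.48 in ALP, −2.56 to 1.64 in EILP and −4.45 to −0.05 in ILCp. Hspa1b ranged from −6.28 to 3.90 in ALP, −3.69 to 3.82 in EILP and −2.26 to 3.59 in ILCp. Hspa1a and Hspa1b are near-identical copies, and how reads were divided between them is not given in the sources used here, so neither value is certain. Hspb1 (Hsp25) ranged from −7.81 to −0.42 over all libraries. No comparison of these 3 passed.

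The 3 transcription factors did not pass in any comparison. Xbp1, whose spliced form drives ER chaperone genes, was 7.10 to 8.17 log2 CPM in ALP (median 7.81), 7.10 to 8.06 in EILP (median 7.31) and 7.28, 6.31, 8.03, 7.77 and 6.78 in ILCp. Its mean was highest in ALP. The EILP versus ALP difference was −0.36 ± 0.30 (limma adjusted p = 0.567) and the ILCp versus ALP difference −0.59 ± 0.34 (0.348). A link between Xbp1 and the levels of the ER members was not tested. The gene-level value does not separate spliced from unspliced Xbp1. Atf4, the factor of the integrated stress response, was 5.81 to 6.63 in ALP (median 6.04), 5.70 to 6.23 in EILP (median 5.82) and 6.31, 6.10, 5.98, 5.85 and 6.02 in ILCp, and its EILP versus ALP difference was −0.18 ± 0.18 (0.638). Ddit3 (CHOP), which Atf4 induces, was 2.08 to 3.85 in ALP (median 2.96), 2.56 to 4.72 in EILP (median 3.00) and 2.397, 2.50, 2.59, 3.13 and 3.65 in ILCp, with a difference of 0.29 ± 0.51 (0.824). All ranges of these 3 genes overlapped.

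Summed over their members, the ER, cytosolic and TRiC groups had their highest mean in EILP. The mitochondrial, cytosolic and TRiC groups had their lowest in ILCp. The ER members together made 5594 ± 653 CPM (SD, n = 7) in ALP, 7215 ± 733 (n = 7) in EILP and 5905 ± 910 (n = 5) in ILCp. TRiC made 4312 ± 249, 4444 ± 360 and 3402 ± 396 CPM, and every ILCp library (2958 to 3871) was below every ALP library (4048 to 4627). The mitochondrial members made 1434 ± 117, 1363 ± 102 and 990 ± 175 CPM, with ILCp at 784 to 1221 and ALP at 1275 to 1589. The cytosolic members made 5988 ± 210, 6515 ± 265 and 5664 ± 516 CPM. These sums include Calr and Hspd1 and were not tested.

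**Figure D4:**
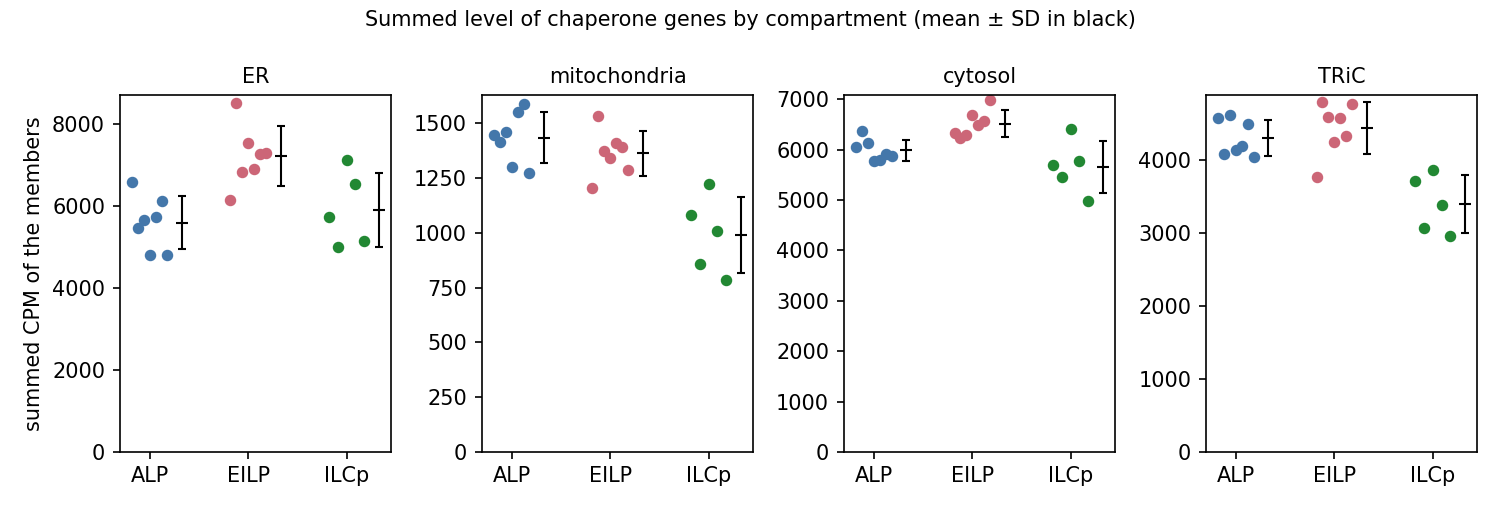
Summed CPM (y axis, from 0) of the ER, mitochondrial, cytosolic and TRiC members in each ALP, EILP and ILCp library (points), with the mean and SD in black. The ER sums are highest in EILP with overlap, and the mitochondrial and TRiC sums of ILCp lie below all ALP libraries.

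Compared per length, the order of the members was similar in all stages. Levels divided by exonic length (GENCODE vM21, on the log2 CPM per kb scale) put Hsp90ab1 first, at 9.23 ± 0.14 (SD, n = 7) in ALP, 9.36 ± 0.10 (n = 7) in EILP and 9.18 ± 0.14 (n = 5) in ILCp. Hspa8 was second at 9.04 ± 0.14, 9.13 ± 0.14 and 8.88 ± 0.21, within about the spread of the libraries. Calr ranked 8 of 40 in ALP at 7.52 ± 0.17, 3 in EILP at 8.67 ± 0.19 and 6 in ILCp at 7.60 ± 0.44. In EILP its neighbours P4hb (8.58 ± 0.19) and Cct5 (8.33 ± 0.06) came next, the first within the spread. At the low end stood Hyou1, Ddit3 and the 3 heat-inducible genes. Members with an exonic length numbered 40 of 40.

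The wider pathway was read from 5 further lists, of which 118 genes were measured. By limma, 6 of 118 rose and 2 fell from ALP to EILP, 1 rose and 4 fell from EILP to ILCp, and 6 rose and 4 fell from ALP to ILCp, beside the shares of all genes given above. The medians were 0.09, −0.20 and −0.12. Of 34 further genes of ER folding and quality control, 4 rose and 2 fell between ALP and EILP. Ero1l, the oxidase that recharges disulfide isomerases, had means of 5.12 ± 0.42 (SD, n = 7) log2 CPM in ALP, 6.63 ± 0.48 (n = 7) in EILP and 7.54 ± 0.44 (n = 5) in ILCp, a rise of 1.51 ± 0.29 to EILP (limma adjusted p = 0.00458) and of 2.42 ± 0.33 from ALP to ILCp (0.000209). Ppib, a proline isomerase, rose by 0.53 ± 0.13 (0.0258), and Edem2 and Edem1, which mark misfolded glycoproteins for disposal, by 0.78 ± 0.17 (0.0117) and 0.92 ± 0.24 (0.0328). Prdx4, an ER peroxidase, fell by −2.40 ± 0.43 (0.00276) and Herpud1, part of ER-associated degradation, by −1.13 ± 0.22 (0.00497). Between EILP and ILCp none of the 34 passed by limma, with 12 of 34 at an unadjusted p below 0.05, against the 16.6% of all genes. Between ALP and ILCp, Edem1 rose by 0.92 ± 0.27 (0.0490) and Herpud1 fell by −1.21 ± 0.25 (0.00594). Both Ero1l calls held in all 34 alternatives. The Ppib call was lost without ALP 1, EILP 1 or EILP 6, the second Herpud1 call without ILCp 2, the first Edem1 call without any 1 of ALP 1, 2, 4, 5 and 6 and EILP 1, 2, 3, 4, 6 and 7, and the second without any 1 of ALP 1, 2, 4, 5, 6 and 7, EILP 1 to 7 and ILCp 1, 3, 4 and 5.

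Of 26 genes of the unfolded protein and integrated stress responses, Ddit4, an inhibitor of mTORC1, rose from ALP to EILP by 1.77 ± 0.30 (limma adjusted p = 0.00203) and from ALP to ILCp by 2.08 ± 0.35 (0.00117). Ppp1r15b, which reverses eIF2α phosphorylation, rose in ILCp by 1.12 ± 0.20 against EILP (0.00659) and 0.87 ± 0.19 against ALP (0.00923). Phgdh, the first enzyme of serine synthesis and a known Atf4 target, fell by −0.998 ± 0.172 and −1.40 ± 0.17 (0.00583 and 5.31e-05). Atf3 was 4.41 ± 1.14 higher in ILCp than in ALP (0.0247) from a mean of −5.22 ± 1.00 (SD, n = 7) log2 CPM in ALP, near the lowest values of the table. Atf3 is also an immediate early gene, a kind that responds to cell handling. Of 13 such genes 3, Atf3 itself among them, were higher in ILCp than in ALP. The sums of the 13 were 475 to 748 CPM against 198 to 403. The part of handling in these values was not tested. The Atf3 call was lost without ALP 2, ALP 3 or ILCp 2, that of Ppp1r15b against ALP without ILCp 2 and that of Phgdh against EILP without EILP 5.

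Of 13 mitochondrial genes, 1, the protease Clpp, rose from ALP to EILP by 0.78 ± 0.21 (limma adjusted p = 0.0464). Of 32 cytosolic co-chaperones and heat shock factors, the Hsp90 co-chaperones Ptges3 (p23) and Fkbp4 fell from EILP to ILCp by −0.81 ± 0.19 (0.0324) and −0.66 ± 0.15 (0.0217). In the same list Unc45a, a myosin chaperone, rose by 1.07 ± 0.27 from ALP to ILCp (0.0196) and Hsbp1, a binder of heat shock factor, fell by −0.49 ± 0.14 (0.0455). Of 13 chaperonin and prefoldin genes, Cct6a was the 1 that passed, in the values given with TRiC. The calls in these lists were lost when single libraries were left out: Clpp without any 1 of ALP 1, 2, 3, 5, 6 and 7, EILP 1 to 7 and ILCp 1, 3 and 4, Ptges3 without EILP 1 to 6 or ILCp 2, 4 or 5, Fkbp4 without EILP 1, 2 or 5 or ILCp 1 or 2, Hsbp1 without any 1 of ALP 3 to 5, EILP 5 to 7 and ILCp 2, 4 and 5, and Unc45a without ALP 4 or ILCp 1 or 2.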

How the data were processed

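The authors deposited log2 CPM for 18607 genes in 19 libraries, with 9 empty columns. Per the labels' protocols, RNA came from RNeasy plus micro columns and was amplified with a SMARTer Ultra Low kit (v3) before Nextera XT library preparation, which keeps no strand. The submitters' processing notes name bcl2fastq 1.8.4, STAR 2.4.0h, edgeR, limma and mm10, without roles, and for annotation and counting the sources used here give nothing. That batch differences had been removed from the deposited log2 values was read from the values and makes SDs within stages too small, so batch (5 sequencing batches, per the labels) was kept as a term.

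All genes and libraries were fitted with limma 3.58.1 in R 4.3.3 (mean-variance trend, stage and batch, two-sided, Benjamini-Hochberg over all genes, 0.05). A run on simulated data used independent genes and no removal of batch differences, so it does not vouch for the p-values of these data. With batch in the model 12 residual degrees of freedom remain, and batch 3, which holds EILP alone, informs only the errors. Total counts are unknown, so no counting interval was given. The labels tie no replicate number to an animal. Deviations of same-numbered libraries correlated at −0.64 to −0.17 within a batch, where removal of batch differences itself makes them negative, and at −0.03 to 0.12 in the 7 pairs across batches. Members and gene lists were chosen with earlier results of these data known. Full statistics go to members that passed any comparison, to the 2 per compartment with the smallest p in each comparison, and to Calr, Hspd1, Hspa5, Xbp1, Atf4 and Ddit3. Of other pathway genes, up to 3 that rose and 3 that fell per list and comparison are named. Settings tried were no batch term, the replicate block, only the groups compared, no Plzf-cre-GFP libraries, median centring, quantile normalization, the upper part of genes by level, limma with no trend, limma with robust variance, a 2-fold minimum, each library left out, and, chosen after seeing the data, ALP 7 with EILP 2 left out and batches 1, 2, 4 and 5 left out in turn. Marker lists of 10 kinds of cells or states beside the stage markers were summed as CPM. B lineage sums were 82.7 to 252 CPM in ALP, 52.9 to 84.3 in EILP and 27.0 to 56.9 in ILCp.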

Additional observations from a re-analysis of the deposited data

Results flagged for a closer look

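Over 120 groups (40 genes in 3 stages), 11 had 1 library whose gap to its neighbour was a large share of the stage's range beyond Dixon's critical value. Chance alone sets apart about 1 in 20 groups. In 4 of the 11 it was ILCp 2: Pdia4 was lowest there at 7.54 log2 CPM, Dnajc3 lowest at 7.39 and Creld2 lowest at 3.72, while Dnajb1 was highest at 8.01. In 3 it was EILP 2, with Creld2 highest at 6.71, Cct4 highest at 9.35 and Hspb1 lowest at −7.81. The others were Hspa8, highest in EILP 7 at 11.51, Cct7, lowest in EILP 1 at 8.89, Hspb1, highest in ILCp 1 at −0.42, and Atf4, highest in ALP 6 at 6.63.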

How the results depend on the processing

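Among the 22 members with full statistics, no difference that passed changed sign under the alternatives. Those of Calr and Hspd1 with EILP kept their sign too. Both genes were selected on EILP values of these same libraries, so this is only a description. Calr in ILCp versus ALP, which did not pass, ran from −0.03 to 0.26. Of 23 calls among the further pathway genes none changed sign, 4 were kept in all 34 alternatives and 13 were lost without some single library. The number of the 38 members called was 0 between ALP and EILP, 2 between EILP and ILCp and 5 between ALP and ILCp (in this order below). Without the batch term, which ignores the degrees of freedom already spent, it was 4, 15 and 13, beside 13.7%, 16.4% and 20.7% of all genes. In a fit with replicate number as a block it was 2, 8 and 8, beside 8.67%, 7.98% and 12.7% of all genes. Fitted on only the groups compared it was 2, 0 and 0, beside 4.42%, 0.984% and 4.15% of all genes. With median centring it was 9, 5 and 4, beside 6.44%, 3.6% and 7.51% of all genes. Without the Plzf-cre-GFP libraries it was 1 for ILCp versus EILP and 3 for ILCp versus ALP, beside 1.37% and 5.44% of all genes. Limma without a trend gave 1 and 0 for these, beside 1.5% and 5.77% of all genes. A 2-fold minimum also gave 1 and 0, beside 2.33% and 6.38% of all genes. Leaving out 1 library gave 0 to 2, 0 to 3 and 2 to 5. Of all genes these fits called 3.74% to 5.18%, 1.2% to 3.35% and 4.94% to 8.51%. Of the alternatives chosen after seeing the data, leaving out ALP 7 and EILP 2 gave 0 for ILCp versus EILP. That fit called 1.66% of all genes. Leaving out batch 1, 2, 4 or 5 gave 1, 0, 0 and 0 in the first comparison, 0, 0, 1 and 0 in the second, and 2, 2, 3 and 3 in the third, so every batch left out lowered the last 2 counts. Of all genes these fits called 1.68% to 4.02%, 1.39% to 1.98% and 4.25% to 6.40%, also below the shares over all libraries. These fits have fewer libraries, and the cause of the other changes was not tested. Depth is unknown and limits the low genes most.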
